A study of Mus musculus with 8 samples.

Results

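The Wnt/beta-catenin pathway was examined here through 10 genes: the coreceptors Lrp5 and Lrp6, the Frizzled receptors Fzd1 and Fzd3, the intracellular genes Ctnnb1, Apc, Axin1, Axin2 and Gsk3b, and the secreted inhibitor Wif1. All probe sets whose only gene symbol in the platform annotation was one of these names were taken: 10 of 18194 genes named in this way, and 29 of 45101 probe sets on the array. RNA came from mice of the line Hcrt JD218 on a background labelled mixed Fvb and c57/bl6j, adults of both sexes aged 6 to 12 weeks, with 5 mice in each sample. These animals carried a bacterial artificial chromosome transgene in a line named for Hcrt, the hypocretin gene, through which the ribosomes of hypocretin neurons could be affinity-purified. Thalamus and hypothalamus were dissected together, and 4 immunoprecipitates (RNA on the purified ribosomes) were set against the 4 unbound fractions of the same preparations, the reference for the whole tissue. An immunoprecipitate from mice without the transgene was not analysed here. Both fractions carried the transgene, so binding to ribosomes and cell type differ together, and fewer cells of a type cannot be told apart from less RNA per cell. The preparations pooled different mice, and p-values measure the spread between them within each fraction. The pairing of the fractions entered only alternative checks.

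Wnt proteins bind a Frizzled receptor and an LRP5 or LRP6 coreceptor at the cell surface. Without a Wnt signal, a destruction complex built on the scaffolds Axin and APC holds beta-catenin (Ctnnb1) so that GSK3-beta and casein kinase 1 can phosphorylate it for degradation. With a signal, beta-catenin accumulates and acts with TCF/LEF factors in the nucleus, and Axin2 is a widely used target gene and feedback inhibitor of that step. In the adult diencephalon, thalamic neurons are known for the factors Tcf7l2 and Lef1, and beta-catenin has a separate structural role at cadherin junctions.

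Promoter sequence is shown for Axin2, the textbook target gene, and for Fzd1 and Gsk3b, the genes among the 10 whose upstream window held the core letters of the TCF/LEF motif. CTTTGA was searched on both strands, so that its reverse complement TCAAAG counted too, in the 250 bases before each annotated start. Windows were at hand for 5 of the 10 genes, from RefSeq on GRCm38.p6. Each is written 5′ to 3′ on the strand of its gene, with a match in capitals. The Axin2 window is chr11:108920099-108920348 on the plus strand and lies inside the annotated span of that gene, the Fzd1 window is chr5:4758217-4758466 on the minus strand, and the Gsk3b window is chr16:38088751-38089000 on the plus strand.
Axin2: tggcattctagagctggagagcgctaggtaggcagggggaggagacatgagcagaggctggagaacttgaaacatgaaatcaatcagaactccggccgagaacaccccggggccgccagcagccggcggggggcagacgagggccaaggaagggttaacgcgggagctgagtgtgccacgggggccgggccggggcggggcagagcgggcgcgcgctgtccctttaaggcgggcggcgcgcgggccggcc
Fzd1: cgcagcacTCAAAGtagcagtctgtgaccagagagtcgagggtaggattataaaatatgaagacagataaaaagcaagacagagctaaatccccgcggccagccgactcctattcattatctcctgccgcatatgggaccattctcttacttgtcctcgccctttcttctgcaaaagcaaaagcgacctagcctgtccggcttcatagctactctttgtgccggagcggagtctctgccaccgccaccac
Gsk3b: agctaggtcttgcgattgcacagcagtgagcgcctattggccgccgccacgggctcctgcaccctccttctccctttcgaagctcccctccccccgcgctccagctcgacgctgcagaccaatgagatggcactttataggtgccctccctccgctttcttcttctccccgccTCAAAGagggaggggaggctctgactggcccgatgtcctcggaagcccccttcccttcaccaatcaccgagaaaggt
TCAAAG stood 242 bases before the start of Fzd1 and 77 bases before that of Gsk3b. Of all 32851 annotated windows of this length, 13.8% held the motif. No match in the Axin2, Ctnnb1 and Wif1 windows says only that these letters are not there.

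Of the 29 probe sets, 17 reached a linear value of 50 (5.64 on the log2 scale) on at least 4 arrays and were tested among 17865. Of the 12 others, 11 lay under 50 on all 8 arrays. 9 genes had a tested probe set, and Lrp5 had none. 12 of the 17 were at or above 50 on all 8 arrays, while 5 passed because of a single fraction and so had to differ between them. A probe set was called at a limma adjusted p under 0.05 and at least 2-fold. At that rule 13 of 17 were lower in the immunoprecipitate and 1 was higher, against 45.1% lower and 4.88% higher among all tested probe sets. The median change was -1.61 on the log2 scale (immunoprecipitate minus unbound), beside -0.87 over all tested probe sets. The groups did not overlap for 13 probe sets with lower and 2 with higher immunoprecipitate values, and for 50.1% and 6.85% of all tested. The arrays' number limits the precision of each value.

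The common shift matters for every member, since the fractions were normalized apart. Centring each array on its median moved the change of the median probe set by 0.92 and left 6 member probe sets lower and 2 higher, where 21.2% and 20.5% of all tested were called. Quantile normalization moved it by 0.83, with 7 lower and 2 higher beside 20.9% and 17.2%. A shift set on poly-A controls moved it by -1.97 and gave 16 lower and 0 higher beside 94.2% and 0.700%. The fit with the replicate block left the counts at 13 and 1, beside 45.9% and 5.21%. The 6 probe sets called lower on all of these scales belonged to Lrp6 (2), Apc (2), Axin2 and Wif1. Only the 2 of Apc were at or above 50 on all 8 arrays. Those of Lrp6, Axin2 and Wif1 passed the filter through the unbound fraction alone, and their calls rest on immunoprecipitate values under 50. As bounds, Lrp6 1451022_at (1.6-fold) and Wif1 (1.99-fold) did not reach 2-fold even before centring. The plot of levels by array shows every tested probe set.

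**Figure D1:**
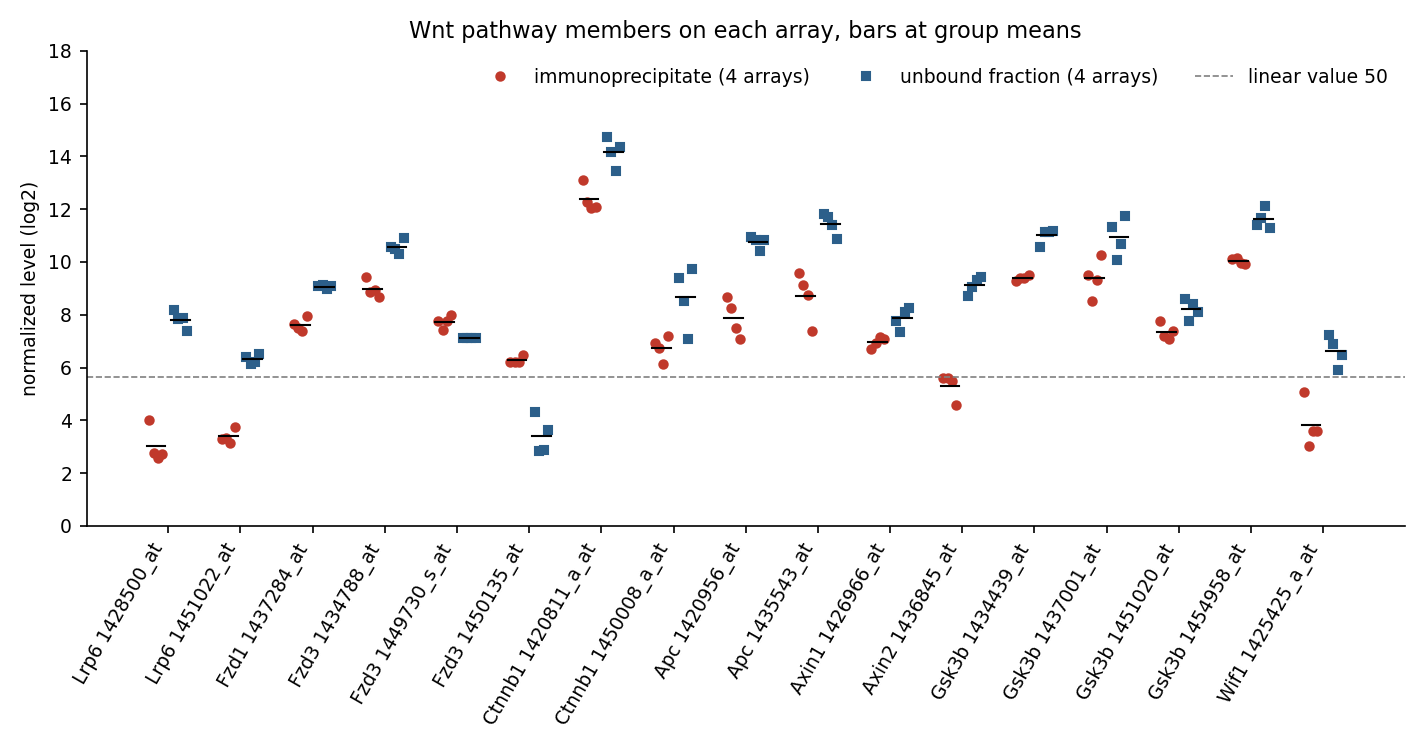
Normalized log2 level of the 17 tested probe sets (x axis) on each array, red circles for the 4 immunoprecipitates and blue squares for the 4 unbound fractions, with bars at the group means and a dashed line at the linear value 50. Both Lrp6 probe sets, Axin2 and Wif1 lie under the line on all 4 immunoprecipitate arrays, and Fzd3 1450135_at lies under it on all 4 unbound arrays.

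Known hypocretin genes stood high in the immunoprecipitate. Hcrt was at 15.10, 15.39, 15.43 and 15.50 there and at 9.77, 10.10, 10.40 and 11.06 in the unbound fraction. Lhx9, named in the study's title and so not independent, had a change of 2.08 ± 0.44 (SE, limma adjusted p = 0.0022) but 0.11 on the poly-A controls. All 6 listed hypocretin genes were called higher, where 4.74% of all tested genes were. On the poly-A controls 5 were, beside 0.673%. The list was chosen with earlier results of these data known, so it is not an independent check. Markers of other cells were lower but present in the immunoprecipitate. 8 of 8 astrocyte, 7 of 7 tested oligodendrocyte, 6 of 6 GABAergic, 5 of 7 thalamic and 2 of 3 tested habenular markers were called lower, where 44.2% of all tested genes were. After median centring these counts were 7, 3, 5, 4 and 2, with 1 thalamic marker higher, beside 19.6% lower and 20.4% higher of all tested genes. On both scales the habenular count includes Wif1, itself a member. The thalamic count includes Tcf7l2 and Lef1, which are pathway genes read below. Summed linear levels ran from 1688 to 8182 for astrocytes, from 20613 to 44706 for oligodendrocytes, from 10678 to 17132 for thalamic and from 1027 to 2535 for habenular markers in the immunoprecipitates. In the unbound fractions these ranges were 18433 to 24517, 104937 to 122293, 25232 to 39177 and 7350 to 9802. Sox9 among the astrocyte markers, Lef1 among the thalamic, and Wif1, Gpr151, Chrnb4 and Chrna3 among the habenular were under 50 on all immunoprecipitate arrays. No oligodendrocyte marker was. These cells' part in the changes below was not tested. Preparation 4 stood apart. Its choroid plexus marker Ttr read 5.42 in the unbound fraction, against 15.47 to 15.87 in the other preparations, and 10.19 against 14.99 to 15.45 in the immunoprecipitate. Without it, 13 member probe sets were lower and 1 higher.

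The coreceptors open the pathway at the membrane. Lrp6 lies at chr6:134446476-134566913 on GRCm38.p6. Its probe set 1428500_at read 4.03, 2.77, 2.59 and 2.73 in immunoprecipitates 1 to 4 and 8.17, 7.83, 7.88 and 7.39 in the unbound fractions. The groups did not overlap, and every immunoprecipitate array was under the linear value 50. The fitted change of -4.79 ± 0.34 (SE, limma adjusted p = 4.1e-06) therefore rests on values near background, and the bound is at least 4.55-fold lower. The other Lrp6 probe set, 1451022_at, read 3.31, 3.34, 3.16 and 3.75 against 6.39, 6.15, 6.20 and 6.50. It too was under 50 throughout the immunoprecipitate, at least 1.60-fold lower, with a fitted change of -2.92 ± 0.21 (SE, limma adjusted p = 4.5e-06). Lrp5, at chr19:3584825-3686585, is the close relative that shares the coreceptor role. Its 1 probe set read 2.20 on every immunoprecipitate array and 2.15 on every unbound array, which is the floor of each fraction, so that the array gave no level for it in either.

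Frizzled receptors bind Wnt proteins directly. Fzd1, a gene of 4378 bases at chr5:4753839-4758216, read 7.64, 7.49, 7.39 and 7.94 in the immunoprecipitate and 9.08, 9.12, 8.99 and 9.09 in the unbound fraction (probe set 1437284_at). All 4 immunoprecipitates were below all 4 unbound fractions, which differed little from each other. Fzd1 fell 2.74-fold (change -1.46 ± 0.22 SE, limma adjusted p = 0.00026). After median centring the change was -0.53 (limma adjusted p = 0.064), and Fzd1 was no longer called. A further Fzd1 probe set was at the floor on all 8 arrays.

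Fzd3, at chr14:65192441-65262463, is known for its part in axon guidance, and its 6 probe sets did not give 1 answer. The brightest, 1434788_at, read 9.44, 8.86, 8.93 and 8.68 in the immunoprecipitate against 10.57, 10.51, 10.30 and 10.91. It fell 3.02-fold (change -1.59 ± 0.23 SE, limma adjusted p = 0.00024), with -0.67 after median centring, under 2-fold. Probe set 1450135_at went the other way, with 6.23, 6.23, 6.23 and 6.46 in the immunoprecipitate and 4.32, 2.85, 2.87 and 3.64 in the unbound fraction. Here the unbound arrays were all under 50. The fitted change was 2.86 ± 0.33 (SE, limma adjusted p = 6.1e-05), and the bound is at least 1.55-fold higher. However, 3 of the 4 immunoprecipitate values were alike at 6.23. Values under 50 repeat in the same way, as in Fzd3 1421157_at at 3.02, 3.00, 3.00 and 3.00 in the immunoprecipitate. Whether 6.23 is a measured level was not tested, and the bound rests on it. The call of 1450135_at did not hold on every scale. It was not called on the poly-A controls (0.90). Probe set 1449730_s_at read 7.78, 7.44, 7.78 and 7.98 against 7.11 on each unbound array. Its 4 unbound values lay within 0.01 of each other, as they did at or above 50 in 24 of 17865 tested probe sets. The change of 0.63 ± 0.22 (SE, limma adjusted p = 0.028) was under 2-fold, and the poly-A controls turned it to -1.33, while median centring gave 1.56. The other 3 Fzd3 probe sets were under 50 on all 8 arrays. No direction for Fzd3 as a gene follows from these values.

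**Figure D2:**
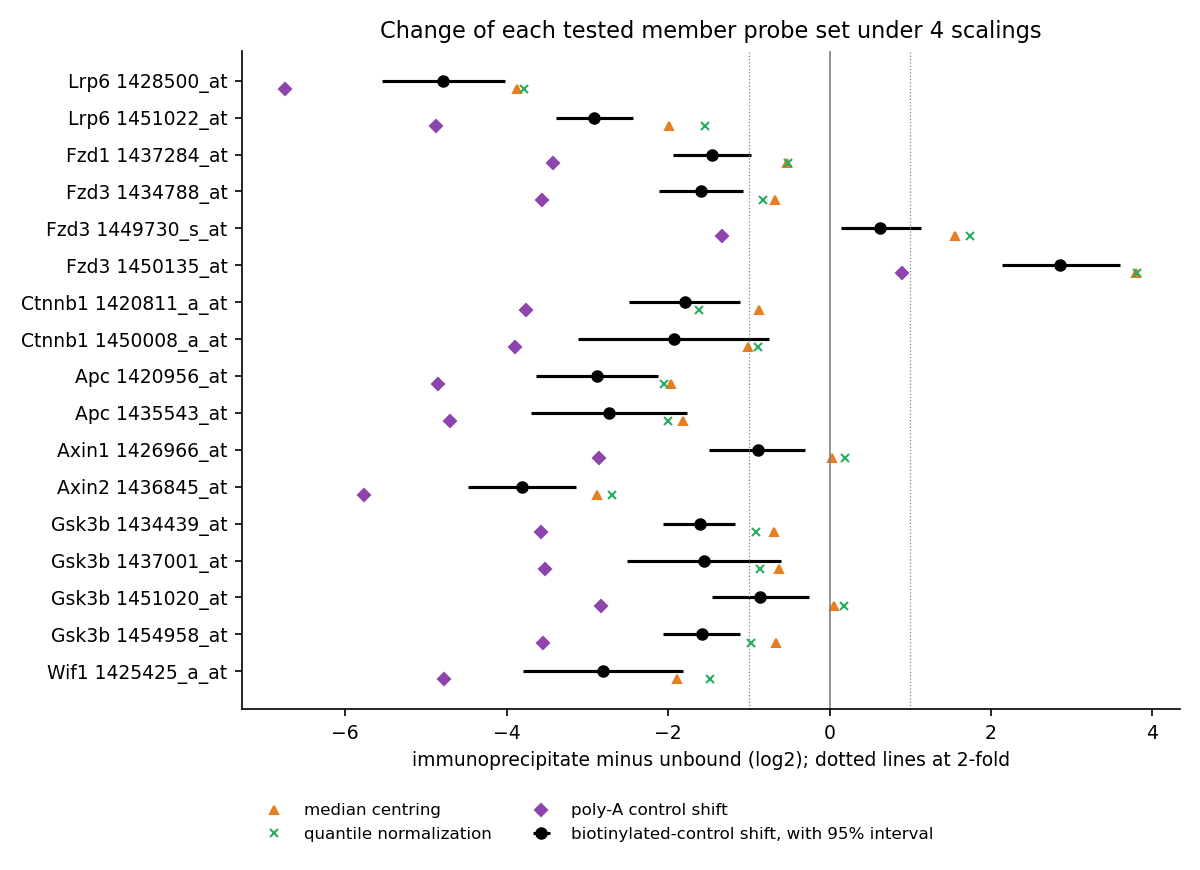
Change of each tested probe set (immunoprecipitate minus unbound, log2, x axis), with black circles and 95% intervals from limma after the shift on biotinylated controls, and the same change after median centring (triangles), quantile normalization (crosses) and a shift on poly-A controls (diamonds). Lrp6, Apc, Axin2 and Wif1 lie beyond the dotted 2-fold line on the lower side on every scale, whereas Axin1 and Gsk3b 1451020_at are at 0.03 and 0.06 after median centring. The positions of Lrp6, Axin2 and Wif1 are fitted values that rest on immunoprecipitate levels under 50.

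Beta-catenin and its kinase were abundant in both fractions. Ctnnb1, at chr9:120933400-120960507, read 13.11, 12.27, 12.04 and 12.09 in the immunoprecipitate and 14.74, 14.15, 13.43 and 14.37 in the unbound fraction (probe set 1420811_a_at). The groups did not overlap. The gene fell 3.47-fold (change -1.79 ± 0.31 SE, limma adjusted p = 0.00061), or -0.87 after median centring (limma adjusted p = 0.033), where it missed 2-fold, and -1.62 after quantile normalization. Its dimmer probe set 1450008_a_at read 6.92, 6.73, 6.15 and 7.19 against 9.41, 8.53, 7.07 and 9.72. These groups overlapped, with unbound replicate 3 below immunoprecipitate replicate 4. The change was -1.93 ± 0.53 (SE, limma adjusted p = 0.0091), and it lost its call without unbound replicate 1 (-1.50, limma adjusted p = 0.050). Fits without an array set the shift again on the arrays left, so such changes also hold a new constant. Probe set 1430533_a_at was not tested because only unbound replicates 1 and 4, at 6.01 and 6.95, reached 50. Unbound replicate 3 was the lowest unbound array on all 3 Ctnnb1 probe sets.

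Gsk3b, at chr16:38089001-38246084, encodes the kinase that marks beta-catenin for degradation. The brightest of its probe sets, 1454958_at, read 10.12, 10.14, 9.95 and 9.92 in the immunoprecipitate against 11.39, 11.68, 12.12 and 11.28. That is 3.00-fold lower (change -1.58 ± 0.21 SE, limma adjusted p = 0.00015). Of the 4 tested Gsk3b probe sets 3 were called lower, with changes of -1.55, -1.58 and -1.61 on the log2 scale. The fourth, 1451020_at, read 7.76, 7.18, 7.08 and 7.38 against 8.59, 7.77, 8.39 and 8.10 and changed by -0.86 ± 0.27 (SE, limma adjusted p = 0.018), under 2-fold. It passed 2-fold without immunoprecipitate replicate 1 (-1.13) or unbound replicate 2 (-1.03), with the shift set again on the arrays left. Probe set 1437001_at spread more than the others, from 8.54 to 10.27 in the immunoprecipitate and from 10.08 to 11.75 in the unbound fraction, so that the groups overlapped. It was lower in 4 of 4 preparations, by 1.37 to 1.82, and lost its call without unbound replicate 1 (-1.25, limma adjusted p = 0.053). After median centring no Gsk3b probe set reached 2-fold, with changes from -0.69 to 0.06.

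The scaffolds of the destruction complex divided. Apc, a gene of 101894 bases whose product binds beta-catenin and microtubules, read 9.60, 9.12, 8.73 and 7.40 in immunoprecipitates 1 to 4 and 11.80, 11.72, 11.39 and 10.87 in the unbound fractions (probe set 1435543_at). The groups did not overlap, and the fourth preparation was lowest in both. Apc fell 6.66-fold on this probe set (change -2.73 ± 0.43 SE, limma adjusted p = 0.00038). On 1420956_at it read 8.67, 8.24, 7.50 and 7.08 against 10.95, 10.85, 10.41 and 10.82, and fell 7.38-fold (-2.88 ± 0.34 SE, limma adjusted p = 7.3e-05). Median centring left -1.81 and -1.96. The 2 other Apc probe sets were under 50 on all arrays.

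Axin2, at chr11:108917828-108950783, read 5.59, 5.60, 5.48 and 4.60 in the immunoprecipitate and 8.72, 9.05, 9.33 and 9.42 in the unbound fraction (probe set 1436845_at). All immunoprecipitate arrays were under 50, replicate 4 well under it, and the groups did not overlap. Axin2 was at least 11.3-fold lower, with a fitted change of -3.81 ± 0.30 (SE, limma adjusted p = 7.2e-06), or -2.88 after median centring. Axin1, its constitutive relative at chr17:26131217-26195811, read 6.72, 6.92, 7.17 and 7.10 against 7.76, 7.35, 8.11 and 8.27 (probe set 1426966_at). Its groups did not overlap either, but the change of -0.89 ± 0.27 (SE, limma adjusted p = 0.014) missed 2-fold and was 0.03 after median centring. Without unbound replicate 2 it was called, at -1.09. Each Axin gene had a further probe set under 50 on all 8 arrays.

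Wif1 encodes a secreted protein that binds Wnt ligands outside the cell. The gene, at chr10:121034004-121100642, has 1 probe set (1425425_a_at), which read 5.06, 3.03, 3.58 and 3.58 in the immunoprecipitate and 7.24, 6.89, 5.89 and 6.48 in the unbound fraction. Every immunoprecipitate array was under 50, and the groups did not overlap. Wif1 was at least 1.99-fold lower, with a fitted change of -2.81 ± 0.44 (SE, limma adjusted p = 0.00037), and -1.89 after median centring (limma adjusted p = 0.0051).

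The immunoprecipitates differed in their markers of other cells, and the lowest and highest arrays of the members are listed beside these. Such ranks can rest on small differences. The 4 immunoprecipitates spanned 0.21 for Gsk3b 1454958_at, 0.23 for Gsk3b 1434439_at and 0.24 for Fzd3 1450135_at, but 1.59 and 2.21 for the Apc probe sets. No relation between members and markers is drawn from them. Immunoprecipitate replicate 4 was the lowest for both Apc probe sets, Fzd3 1434788_at and Gsk3b 1454958_at. It was the highest for Fzd1, Fzd3 1449730_s_at, Fzd3 1450135_at, Ctnnb1 1450008_a_at, Gsk3b 1437001_at and Gsk3b 1434439_at. It had the lowest summed level of astrocyte (1688), oligodendrocyte (20613), GABAergic (4785), thalamic (10678) and microglial (273) markers, and the highest of hypocretin genes (75869). Its thalamic sum is mostly Calb2 (12.34) and Slc17a6 (12.27), since the other thalamic markers read at most 7.45 there. Immunoprecipitate replicate 1, highest for both Apc probe sets, Fzd3 1434788_at, Ctnnb1 1420811_a_at and Gsk3b 1451020_at but lowest for Axin1 and Gsk3b 1434439_at, had the highest sums for astrocyte (8182), oligodendrocyte (44706), GABAergic (11306), thalamic (17132) and microglial (1233) markers. Values of Lrp6, Axin2 and Wif1 were under 50 there and have no order. The part of these cells in the immunoprecipitate values was not tested. Without both arrays of preparation 1, 11 member probe sets were lower and 1 higher, and the probe sets that lost their call were Ctnnb1 1450008_a_at (-1.70, limma adjusted p = 0.059) and Gsk3b 1437001_at (-1.41, limma adjusted p = 0.061).

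A difference between 2 probe sets on the same array does not depend on the constant by which the fractions were shifted, so 5 pairs of members were compared in this way with a two-sided exact permutation test over the 8 arrays. The smallest p that 4 against 4 allows is 0.0286, and p-values were adjusted over the 5 pairs. Levels of different probe sets cannot be compared, only how their difference moved between fractions. Axin2 minus Axin1 stood at 1.26 ± 0.31 in the unbound fraction and at -1.66 ± 0.61 in the immunoprecipitate (SD, n = 4 each, log2; difference -2.92 ± 0.34 SE, exact p = 0.0286, adjusted p = 0.0714). Axin2 was under 50 on all 4 immunoprecipitate arrays, and with such values raised to 50 the difference was -2.60 (exact permutation adjusted p = 0.0714). Apc minus Axin1 went from 3.58 ± 0.79 in the unbound fraction to 1.73 ± 1.10 (SD, n = 4 each; difference -1.84 ± 0.68 SE, exact p = 0.0571, adjusted p = 0.0952). Lrp6 minus Lrp5 differed by -4.83 ± 0.37 (SE, exact p = 0.0286, adjusted p = 0.0714), but with Lrp5 at the floor this repeats the change of Lrp6, and it was -2.16 with values under 50 raised to 50. No pair passed 0.05 after adjustment. Gsk3b minus Ctnnb1 differed by 0.21 ± 0.50 (SE, exact p = 0.686, adjusted p = 0.714) and Fzd3 minus Fzd1 by -0.14 ± 0.25 (SE, exact p = 0.714, adjusted p = 0.714). With the mean of all tested probe sets per gene, the first 3 differences were -2.92, -1.91 and -3.90 and each had an exact permutation adjusted p of 0.0357. Axin1 and Axin2 have 1 tested probe set each, so their difference is the same there, and its adjusted p fell only because more pairs reached the smallest p. On that setting Fzd3 minus Fzd1 turned to 2.09 with the same adjusted p, since the Fzd3 probe sets went different ways.

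**Figure D3:**
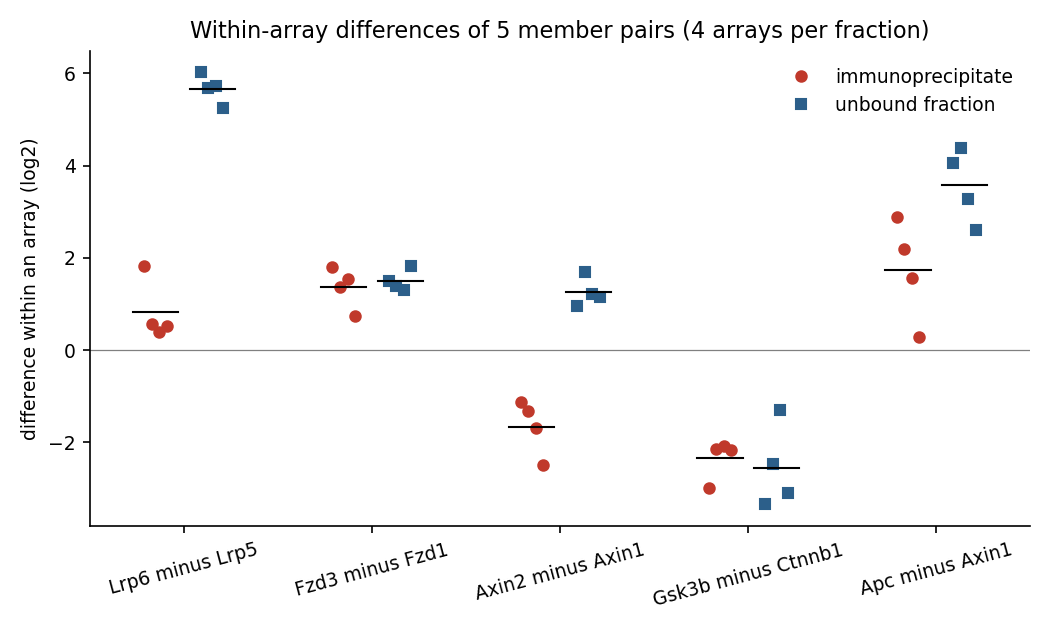
Log2 difference between 2 members within each array (y axis) for 5 pairs, with red circles for the 4 immunoprecipitates, blue squares for the 4 unbound fractions and bars at the means. The fractions separate for Lrp6 minus Lrp5 and Axin2 minus Axin1, overlap at 2.88 and 2.60 for Apc minus Axin1, and lie together for Fzd3 minus Fzd1 and Gsk3b minus Ctnnb1.

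Changes over all genes went with genomic length, and the members were read against genes of like length. Among 10375 tested genes with a RefSeq length, the median change was -0.13 among the shortest of 5 equal groups (73 to 8528 bases), -0.81 in the middle group and -1.54 in the longest (81035 to 2390387 bases). Gsk3b, with 157084 bases, lay at the median of its length group, with a difference of -0.04 on the log2 scale. Axin1 was 0.26 above the median of its group and Fzd3, by its brightest probe set, 0.44 below (a difference of -0.44). Among the other members measured on all 8 arrays, Fzd1, Apc and Ctnnb1 lay below the median of their groups, at differences of -1.32, -1.19 and -0.98. Lrp6, Axin2 and Wif1 were under 50 on all immunoprecipitate arrays, so only their bounds can be placed. The bound of Axin2 lay below its group's median by a difference of -2.69 and that of Lrp6 by -0.64. The bound of Wif1 lay 0.16 above the median, so these data do not place Wif1 below genes of like length. Fzd1 was the only short gene of the 10, and its change was lower than that of most genes in its group, with 17.3% lower still. These are positions among genes, which are not independent replicates, and no test is attached to them.

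**Figure D4:**
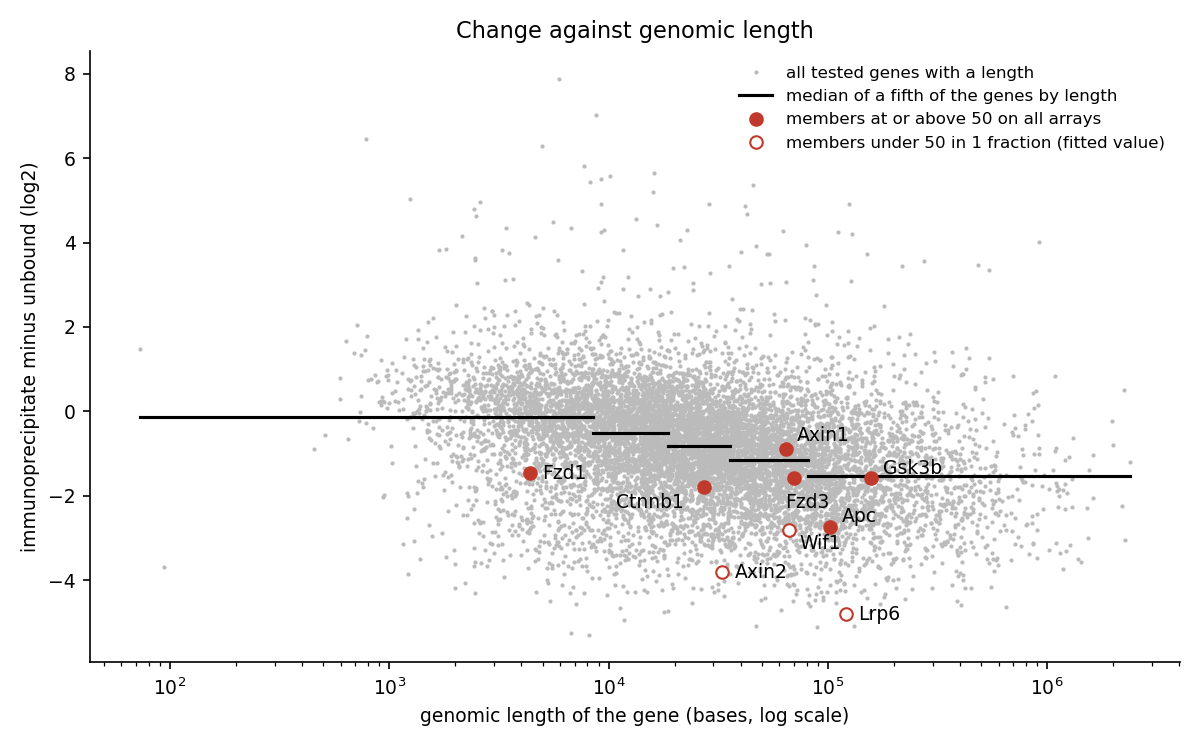
Change (immunoprecipitate minus unbound, log2, y axis) against genomic length (bases, log scale) for 10375 tested genes in grey, with the 9 tested members in red (open where 1 fraction was under 50 on all its arrays, at the fitted value) and black lines at the median of each of 5 groups of genes by length. Gsk3b lies on the line of its group and Fzd1, Apc and Ctnnb1 below theirs, while the open symbols of Lrp6, Axin2 and Wif1 rest on immunoprecipitate values under 50.

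The profile most like that of each member was sought among 10397 other tested genes, by the root mean square difference of the 8 centred log2 values. For Ctnnb1 it was AW549877 (0.141, where the median gene differed by 0.852), for Gsk3b Septin11 (0.116 against 0.726), for Apc Foxn2 (0.166 against 1.23) and for Fzd3 Pde4d (0.113 against 0.712). Their changes were -1.87, -1.64, -2.73 and -1.61 on the log2 scale. The nearest of 10397 genes lies closer than the median gene by construction. Its change is alike for the same reason, since the 8 values hold the difference between the fractions. Neither is evidence of a link between the genes.

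The rest of the pathway was read from 87 other genes in 7 lists, each gene by its brightest tested probe set. 48 were tested and 27 were called lower and 1 higher, beside 44.2% and 4.74% of the 10398 tested genes. Their median change was -1.35 on the log2 scale, against -0.85 over all tested genes. After median centring 17 were lower and 5 higher, beside 19.6% and 20.4%. Quantile normalization gave 16 and 4, beside 20.6% and 16.4%, and the poly-A controls 47 and 1, beside 94.5% and 0.673%. 12 of the 27 were under 50 on all immunoprecipitate arrays. Of 37 untested genes with probe sets, 32 were under 50 on all 8 arrays at every probe set. Among 18 genes with several tested probe sets, 8 had mixed calls, some of them with a dimmer probe set called higher.

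Of 19 Wnt ligands 5 were tested, of which 4 fell and 0 rose, where 44.2% and 4.74% of all tested genes did. After median centring 3 were lower and 1 higher, beside 19.6% and 20.4%. Wnt4 was then at -0.19 and no longer called, and Wnt9a was called higher at 1.16. Wnt7b (3.05, 3.34, 3.05 and 2.73 against 6.76, 6.59, 6.76 and 7.61), Wnt5a and Wnt7a were under 50 on all immunoprecipitate arrays and at least 2.46-, 3.29- and 3.60-fold lower (limma adjusted p = 3.6e-06, 4.4e-06 and 2.4e-05). Of 13 other receptors 6 were tested and 5 fell, and after median centring 3 were lower and 0 higher. Fzd4, Fzd7 and Fzd2 were at least 1.77-, 2.42- and 2.67-fold lower and under 50 on all immunoprecipitate arrays. Of the genes for ligand release, which lipidate, carry and inactivate Wnt proteins, 2 of 3 were tested and 0 were called. Porcn, which adds the lipid, changed by -0.80 (limma adjusted p = 0.019), under 2-fold.

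R-spondins are secreted proteins that strengthen Wnt signals by removing the ubiquitin ligases Znrf3 and Rnf43 from the membrane, through Lgr receptors. Of the 9 genes of this arm 5 were tested, of which 3 fell and 1 rose, beside 44.2% and 4.74% of all tested genes. Rspo1 read 9.72, 9.78, 10.06 and 10.20 in the immunoprecipitate and 5.18, 5.18, 6.29 and 5.95 in the unbound fraction. The groups did not overlap, and unbound replicates 1 and 2 were under 50. Rspo1 was at least 16.6-fold higher, with a fitted change of 4.29 ± 0.31 (SE, limma adjusted p = 4.1e-06). It was the 1 pathway gene called higher by its brightest tested probe set. It was called on each scale, with 5.21 after median centring, 5.36 after quantile normalization and 2.32 on the poly-A controls. Rspo3 read 4.72, 4.38, 4.19 and 3.85 against 8.18, 8.45, 8.07 and 6.86. It was at least 4.77-fold lower (fitted change -3.60 ± 0.36 SE, limma adjusted p = 3.0e-05). Znrf3 was at least 3.51-fold lower (fitted change -2.21, limma adjusted p = 0.00022), with 1 of 4 immunoprecipitate arrays at or above 50, and missed 2-fold after quantile normalization (-0.94).

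Other secreted inhibitors gave 2 lower of 4 tested among 11, beside 44.2% of all tested genes. After median centring 1 was lower and 1 higher, beside 19.6% and 20.4%. Sostdc1, a choroid plexus gene as well as a Wnt and BMP antagonist, read 4.73, 4.46, 4.30 and 2.51 in the immunoprecipitate, all below the unbound values, which ran from 6.07 to 8.99. It was lowest in preparation 4 in both fractions, as Ttr was. It was at least 4.21-fold lower, with a fitted change of -3.71 ± 0.70 (SE, limma adjusted p = 0.0011) and -3.67 without preparation 4. Sfrp5 was at least 1.33-fold lower and was not called after median centring (-0.73). Of 18 cytoplasmic transducers 15 were tested and 7 fell, with a list median of -0.93, near that of all genes. After median centring 3 transducers were lower and 2 higher. Tnks, a tankyrase that marks Axin for degradation, fell 5.73-fold, the feedback inhibitor Nkd1 was at least 4.79-fold and Apc2 at least 3.02-fold lower. Apc2 was not called after median centring (-1.09, limma adjusted p = 0.057).

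Nuclear factors of the pathway gave 6 lower of 11 tested among 14, beside 44.2% of all tested genes. After median centring 4 were lower, beside 19.6%. Tcf7l2 read 9.69, 8.16, 8.22 and 6.67 in the immunoprecipitate against 12.39, 11.26, 11.27 and 11.23 and fell 10.2-fold (change -3.35 ± 0.55 SE, limma adjusted p = 0.00048). Lef1 read 5.05, 4.22, 4.22 and 4.22 against 9.51, 8.67, 8.31 and 8.14 and was at least 8.14-fold lower (limma adjusted p = 9.2e-06). Both are also on the list of thalamic markers. The coactivator Bcl9 read 2.60, 2.53, 2.52 and 3.23 against 6.83, 7.22, 6.86 and 7.59 and was at least 2.81-fold lower (limma adjusted p = 1.5e-06). Tcf7l2, Lef1 and Bcl9 kept their call after median centring, at -2.43, -3.31 and -3.48.

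**Figure D5:**
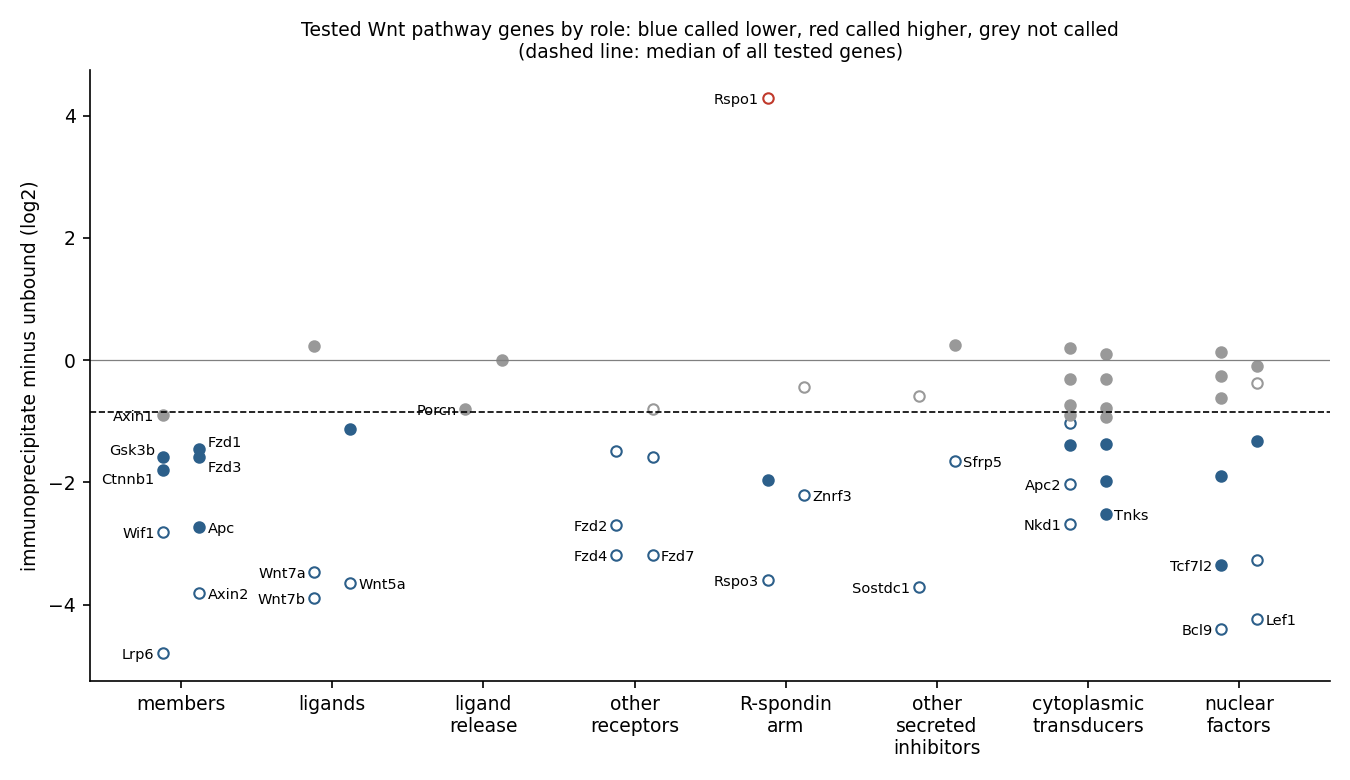
Change (immunoprecipitate minus unbound, log2, y axis) of the tested members and of 48 other tested pathway genes by role (x axis), 1 point per gene, blue where called lower, red where called higher and grey where not called, with a dashed line at the median of all tested genes. Open symbols are fitted values of genes not at or above 50 on all 8 arrays, whose order is not measured. Rspo1 at 4.29 is the 1 red point.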

How the data were processed

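RNA of 4 immunoprecipitates and 4 unbound fractions was amplified over 2 cycles and hybridised to Affymetrix mouse arrays, per the labels' protocols. The authors deposited 1 log2 value per probe set and array, made with GCRMA (version not given in the sources used here) within each fraction separately, per the series' design text. Values began at 2.21 in the immunoprecipitates, and at 2.14 in their unbound counterparts.

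Here 1 constant per fraction was subtracted to give 18 biotinylated controls equal means; as deposited they differed by 0.02. The 64 control probe sets were left out, and 17865 probe sets at or above a linear 50 on at least 4 arrays were tested (limma 3.58.1, R 4.3.3, lmFit, eBayes with trend, Benjamini-Hochberg). Where arrays of the dimmer fraction were under 50, their values were raised to 50 and the fold is a bound. Gene names came from the platform annotation, lengths and promoters from RefSeq. The share reaching 50 was 33.6% to 34.8% for immunoprecipitates, 40.6% to 40.9% for unbound fractions. The 3' minus 5' signal of Actb was 3.14 to 4.11 on the log2 scale in the immunoprecipitates and 3.01 to 3.80 in the unbound fractions. That of Gapdh was 2.12 to 4.5 in the immunoprecipitates and 1.94 to 3.36 in the unbound fractions, so it reached higher in the immunoprecipitates.

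Replicate numbers join the fractions of 1 preparation, per the labels. Deviations of same-numbered arrays correlated by 0.44, 0.33, 0.25 and 0.59. Between unlike numbers, immunoprecipitate 2 with unbound 3 (0.26) and 3 with 2 (0.24) came close to the 0.25 of preparation 3, and all others were below 0. A fit with the replicate block was an alternative, beside other scalings, filters, thresholds and leaving out each array. Where arrays were left out, the shift on biotinylated controls was set again on the remaining arrays. A gained or lost call there can come from the new shift as well as from the array's own value.

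The members, pairs and lists were chosen with earlier results of these data known, Lrp6 and Wif1 among them. Named are all members, in each pathway list up to 3 called genes with the largest change or else the gene with the highest mean, the nearest profile of the 4 brightest members, and Hcrt and Lhx9. The fit was also run on simulated data that held no common shift between the fractions, so that run says nothing about the scaling. Plots used matplotlib 3.10.9 in Python 3.11.15.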

Additional observations from a re-analysis of the deposited data

Results flagged for a closer look

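In 5 of 34 sets of 4 arrays, 1 array stood far from the other 3 by Dixon's criterion, which flags about 1 in 20 such sets by chance. Lrp6 1428500_at read 4.03 in immunoprecipitate replicate 1 against 2.59 to 2.77 in the others. Axin2 1436845_at read 4.60 in immunoprecipitate replicate 4 against 5.48 to 5.60. Gsk3b 1434439_at read 10.58 in unbound replicate 1 against 11.12 to 11.17. Fzd3 1450135_at read 6.46 in immunoprecipitate replicate 4 against 6.23 in the others. Fzd3 1449730_s_at was also picked out, in unbound replicate 3, but its 4 values all read 7.11 and span 0.01.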

How the results depend on the processing

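The count of 13 lower member probe sets was 6 after median centring, 7 after quantile normalization and 6 at a 4-fold threshold. The count of 1 higher was 2 with either median centring or quantile normalization. It was 0 with the poly-A shift, 0 with a minimum of 100 and 2 with no fold threshold. Leaving out 1 array, or both arrays of preparation 1 or 4 (chosen after seeing the data), gave 11 to 15 lower and 1 higher. The fit with the replicate block gave 13 lower and 1 higher and changed no call of a member probe set; a sign-flip version of the pair comparison over 4 preparations cannot reach 0.05, so it says nothing about the pairs. Fzd3 1449730_s_at turned from 0.63 to -1.33 on the poly-A controls. With the mean of tested probe sets, Fzd3 minus Fzd1 turned from -0.14 to 2.09, and Lrp6 minus Lrp5 (-3.90), Axin2 minus Axin1 (-2.92) and Apc minus Axin1 (-1.91) passed the threshold. The Axin2 pair has 1 tested probe set per gene and is the same there: its adjusted p fell only because more pairs, the reversed Fzd3 pair among them, reached the smallest p. The smallest p that 3 arrays against 3 allow does not reach 0.05, so leaving out both arrays of a preparation says nothing about the stability of those pairs. With 1 array left out, 3 against 4 allow the same smallest p as 4 against 4. Results of the pairs with 1 array left out are not given here. Leaving out tested probe sets without spread in 1 fraction, also chosen after seeing the data, removed Fzd3 1449730_s_at and changed no other member's call. Values near the floor limit Lrp6, Wif1 and Axin2 to bounds in the immunoprecipitate.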
